A study of Mus musculus with 8 samples.

Results

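Of 17068 m6A peaks deposited in 3 lists, 20 lay in the 6 genes of the origin recognition complex, Orc1 to Orc6, taken as every peak whose midpoint fell within the span of a member gene on its strand. Orc1 and Orc3 had been picked from the series for their runs of intronic peaks, so the number of those peaks is a description of how the genes were selected and carries no test. The RNA was RNA that stays bound to chromatin, much of it not yet spliced, from E14 mouse embryonic stem cells kept undifferentiated with LIF on gelatine; no treatment or genotype distinguished the samples. Fragments carrying N6-methyladenosine (m6A) were immunoprecipitated with the SySy or with the Abcam antibody and sequenced beside their inputs, in 8 libraries that formed 4 groups of 2. The peaks had been called on the duplicates together and sorted into peaks called with both antibodies (Cfg1, 5277), peaks that passed with SySy while Abcam gave signal under the cutoff (Cfg2, 5472) and peaks called with Abcam alone (Cfg3, 6319). Cfg1 and Cfg2 are together named SySy-called here. The lists hold no height, no read count and no value per library, so the depth is unknown, the spread between replicates could not be computed, and the absence of a peak does not separate unmethylated RNA from RNA too scarce to be measured.

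The origin recognition complex binds the sites where DNA replication can start. Together with the loaders Cdc6 and Cdt1 it places the Mcm2 to Mcm7 helicase on DNA before S phase. Orc1 to Orc5 are related ATPase-fold subunits, of which Orc1 supplies the main ATPase activity, and Orc6 is a small and unrelated subunit. In m6A biology, the Mettl3 and Mettl14 complex methylates adenosines within the sequence DRACH (D is A, G or T, R is A or G, H is A, C or T, in DNA letters), with GGACT as a favoured form, while the transcript is being made. Most methylated sites of mature mRNA lie near stop codons, and peaks in introns are a small part of the SySy-called peaks: introns held 6.27% of Cfg1 and 10.2% of Cfg2 peaks, against 48.9% of Cfg3 peaks. By the methods the library kit differed between the SySy and Abcam libraries, so kit and antibody cannot be told apart where the SySy-called lists are set against Cfg3.

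The peaks were very unevenly spread over the members. Orc1 held 9, Orc3 held 6, Orc2 held 3, and Orc5 and Orc6 held 1 each, whereas none of the lists had a peak in Orc4. At least 1 peak was thus found in 5 of the 6 genes, and 25.1% of 21951 protein-coding genes held a peak of any list. Cfg1 peaks were present in 3 members, Cfg2 peaks in 5 and Cfg3 peaks in 2, beside 12.1%, 13.7% and 13.3% of protein-coding genes respectively. The lists contributed 9, 9 and 2 of the 20 peaks. A SySy-called peak stood in 5 members, against 19.7% of protein-coding genes, and a SySy-called intronic peak stood in 3 (Orc1 with 7, Orc3 with 6, Orc5 with 1), against 2.7%. Counts per gene took a peak as intronic by the introns of that gene alone, even where an exon of another gene overlapped it. Orc1 and Orc3 hold such peaks by the rule that picked them. In Cfg1, both genes had intronic peaks only, and the single Cfg2 peak of Orc3 was intronic too. The member counts of any, Cfg1, Cfg2, SySy-called and intronic peaks are therefore no fair comparison with the shares over all genes. All these shares also depend on how much RNA each gene makes, which the lists do not show, and were not tested.

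**Figure D1:**
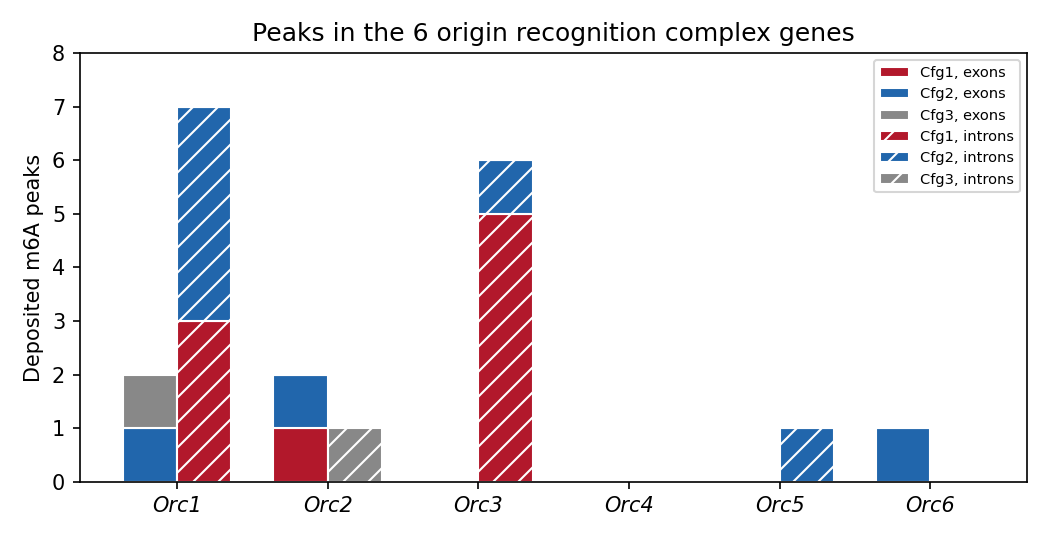
Number of deposited peaks (y axis) in each member gene (x axis), stacked by list, with exonic peaks on the left of each pair and intronic peaks hatched on the right. The intronic bars of Orc1 (7 peaks) and Orc3 (6 peaks) stand above every other bar, and Orc4 has none.

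Only 0.15% of protein-coding genes (33 of 21951) reached 6 SySy-called intronic peaks, the number in Orc3. Peaks were again counted by the introns of each gene alone, so overlapping genes could share them. Around this level, 9 genes had 5 such peaks, 5 genes including Orc3 had 6, and 3 genes including Orc1 had 7. The number depends on how a broad region is counted. MACS2 had returned several summits within some regions and the authors then divided those regions, and the peak names show that the 7 intronic peaks of Orc1 came from 4 called regions and the 6 of Orc3 from 3. In Orc1 the 6 peaks of intron 1 covered 937 nt, or 10.3% of that intron. In Orc3 all 6 lay in intron 9 and covered 1101 nt, or 18.4% of it.

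**Figure D2:**
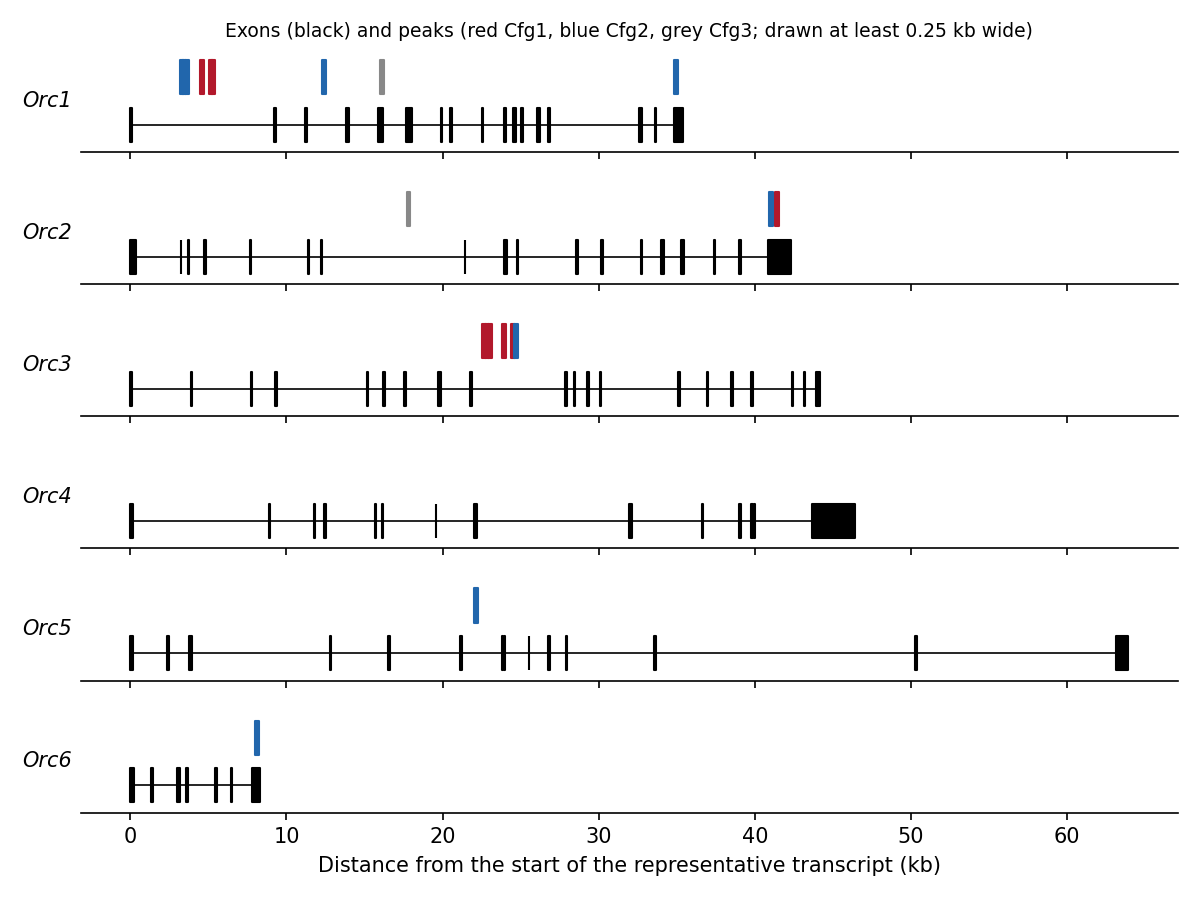
Exons of the representative transcript (black boxes) and peaks (coloured bars above them) of the 6 genes, by distance in kb from the transcript start. The peaks of Orc1 gather in intron 1 and those of Orc3 in intron 9, while the SySy-called peaks of Orc2 and Orc6 lie in the last exon.

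The exonic peaks are described first. Orc1 (chromosome 4, 108579423 to 108614833, plus strand, 17 exons) had a Cfg2 peak at 108614281 to 108614450, which began at the first base of exon 17, the last exon, and had its midpoint 106 nt before the last coding base. Its Cfg3 peak, at 108595438 to 108595539, lay in the coding part of exon 5. Orc2 (chromosome 1, 58462771 to 58505109, minus strand, 18 exons) had 2 SySy-called peaks, both in the 3′ UTR within exon 18 and both parts of the same called region. Their midpoints were 146 nt (Cfg2) and 499 nt (Cfg1) past the last coding base, and the Cfg1 part held 3 GGACT and the Cfg2 part none. Orc6 (chromosome 8, 85299632 to 85308278, plus strand, 7 exons) had 1 Cfg2 peak, in the 3′ UTR within exon 7, 177 nt past the last coding base; it held 5 DRACH but no GGACT. The last exon therefore held all 4 exonic SySy-called peaks of the members. The same share over all exonic SySy-called peaks is not given here, so this is no trait particular to these genes. The Orc1 peaks in exons 5 and 17 lay within the span of Gm12743, a noncoding gene on the opposite strand, and the 2 peaks of Orc2 in exon 18 within that of Nif3l1, also on the opposite strand. Since the strand of each peak had been taken from the side with the stronger enrichment, these 4 assignments rest on that step.

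Intronic peaks outside Orc1 intron 1 and Orc3 intron 9 were few. The Cfg3 peak of Orc2, at 58487300 to 58487415, lay 5499 nt into intron 7, the longest of the gene (9153 nt), and held no GGACT. Orc1 intron 3 held a Cfg2 peak of 100 nt at 108591721 to 108591820 with no GGACT. Orc5 (chromosome 5, 22486485 to 22550429, minus strand) had its only peak, in Cfg2, at 22528134 to 22528359 in intron 6, 908 nt from the 5′ splice site, with 2 GGACT. The RefSeq annotation places a transcribed pseudogene, Gm15421, on the same strand under 139 nt of the 226 nt of this peak. As 18.4% of the 75-base windows of the peak (75 nt being the read length) recurred elsewhere in the assembly, in up to 3 copies, its placement in Orc5 is uncertain.

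The runs in Orc1 and Orc3 stood on the same repeated sequence. When intron 1 of Orc1 (9100 nt) was aligned with intron 9 of Orc3 (5978 nt), a stretch of 2421 nt in Orc1 (chr4:108582400-108584820) and 2476 nt in Orc3 (chr4:34590052-34592527) matched in the direction of transcription. Over 2204 paired bases, with gaps left out, 92.1% were identical. With gaps counted, the longest local alignments were 88.1% identical over 1288 nt and 89.1% over 1000 nt. The Orc3 stretch past 2787 nt from the 5′ splice site was included through a match of 88.7% to the start of the Orc1 stretch. All 12 peaks of both introns lay wholly on this stretch, which began 2825 nt after the 5′ splice site in Orc1 and 534 nt after it in Orc3. Its ends repeated each other: the first part of the Orc3 stretch, from 534 to 879 nt after the splice site, matched its last part, from 2667 to 3009 nt, at 90.8% identity, and in Orc1 the same terminal match was limited to 121 nt at 96.7%. The assembly shows the stretch as repetitive sequence, in lower case, over 96.3% of its length in Orc1 and 92.4% in Orc3. No file named the repeat family, and none is given here.

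**Figure D3:**
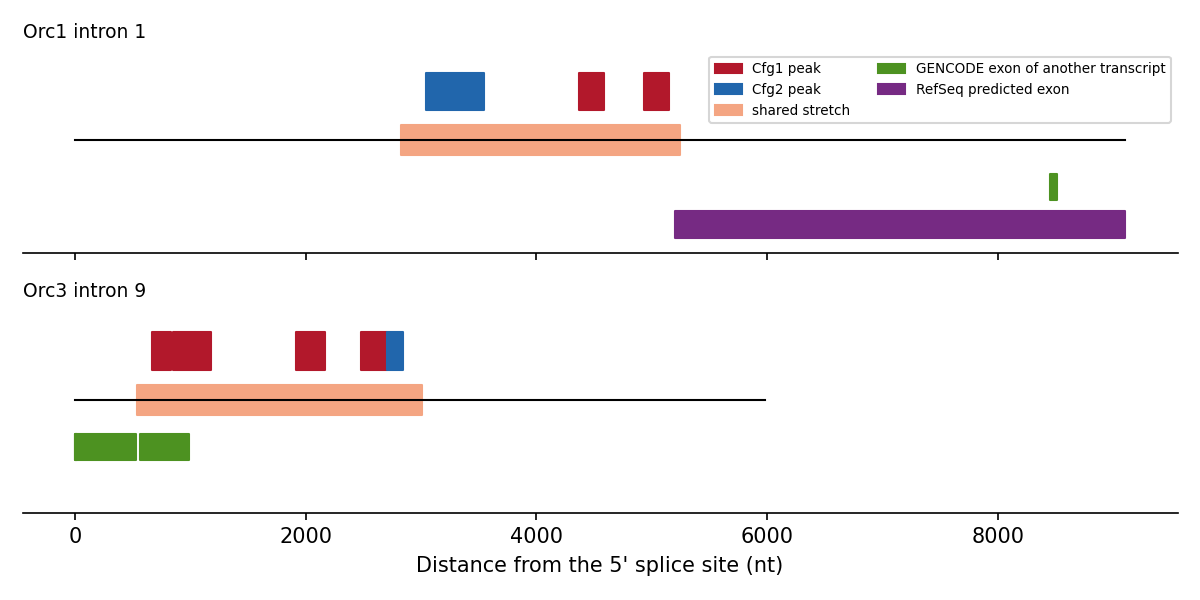
Intron 1 of Orc1 and intron 9 of Orc3 by distance from the 5′ splice site in nt, with peaks above the line, the shared stretch on the line and exons of other annotated transcripts under it. All 6 peaks of each intron lie on the shared stretch, and the rest of both introns holds none.

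The peaks fell on matching parts of the stretch in both genes. Counted along the Orc1 copy, the peaks lay between 219 and 719 nt (3 abutting parts, all Cfg2), between 1541 and 1756 nt (1 peak, Cfg1) and between 2105 and 2327 nt (2 abutting parts, both Cfg1). The peaks of Orc3, carried over to the same positions by the alignment, lay between 131 and 647 nt (3 parts, all Cfg1), between 1581 and 1807 nt (1, Cfg1) and between 2123 and 2421 nt (1 Cfg1 part and 1 Cfg2 part). The bases shared by both sets came to 768, which was 82% of the Orc1 peak bases and 76.6% of the aligned Orc3 peak bases. The peaks took up 38.7% and 41.4% of the stretch. Of the 12 peaks, 11 overlapped a peak of the other gene; the exception was the Cfg2 part at the 3′ end in Orc3, which lies in the terminal repeat; the Orc1 copy ends within that repeat. The lists agreed at the middle and 3′ positions, where the overlapping peaks were Cfg1 in both genes, and differed at the 5′ position, which was Cfg2 in Orc1 and Cfg1 in Orc3. Whether the Abcam signal there differed between the genes could not be tested without read counts.

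The 3′ position had the densest GGACT. The window below, shown because it carries 3 GGACT at the same spacing in both genes (37 and 14 nt from start to start), is 86 nt long and 82 of its bases were identical. It is written 5′ to 3′ along the transcript in DNA letters, with GGACT in capitals.
Orc1, chr4:108584543-108584628, plus strand: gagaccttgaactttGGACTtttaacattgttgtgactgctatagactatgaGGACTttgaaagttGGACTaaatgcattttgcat
Orc3, chr4:34590473-34590558, minus strand: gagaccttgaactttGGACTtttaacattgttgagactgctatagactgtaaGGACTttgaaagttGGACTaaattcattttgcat

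The peaks that contain the GGACT shared inside peaks are printed next, with the Orc1 peaks before the Orc3 peak that overlapped them. The last pair is shown for a GGACT that Orc1 alone holds. GGACT is again in capitals.
Orc1, intron 1, 3′ position, Cfg1, chr4:108584504-108584607, plus strand: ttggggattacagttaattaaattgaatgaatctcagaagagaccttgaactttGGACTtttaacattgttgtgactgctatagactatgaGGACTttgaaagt
Orc1, intron 1, 3′ position, Cfg1, chr4:108584609-108584726, plus strand: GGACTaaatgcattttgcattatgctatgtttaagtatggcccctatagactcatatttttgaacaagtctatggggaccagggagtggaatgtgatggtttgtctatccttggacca
Orc3, intron 9, 3′ position, Cfg1, chr4:34590362-34590578, minus strand: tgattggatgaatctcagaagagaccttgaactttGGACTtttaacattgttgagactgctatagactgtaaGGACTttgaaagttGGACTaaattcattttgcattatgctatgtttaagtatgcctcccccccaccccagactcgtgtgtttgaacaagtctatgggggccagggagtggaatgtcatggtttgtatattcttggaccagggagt
Orc1, intron 1, middle position, Cfg1, chr4:108583940-108584155, plus strand: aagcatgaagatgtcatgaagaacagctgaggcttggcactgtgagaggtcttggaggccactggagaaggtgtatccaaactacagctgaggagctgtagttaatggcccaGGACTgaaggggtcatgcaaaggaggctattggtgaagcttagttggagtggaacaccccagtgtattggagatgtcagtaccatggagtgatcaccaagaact
Orc3, intron 9, middle position, Cfg1, chr4:34590894-34591143, minus strand: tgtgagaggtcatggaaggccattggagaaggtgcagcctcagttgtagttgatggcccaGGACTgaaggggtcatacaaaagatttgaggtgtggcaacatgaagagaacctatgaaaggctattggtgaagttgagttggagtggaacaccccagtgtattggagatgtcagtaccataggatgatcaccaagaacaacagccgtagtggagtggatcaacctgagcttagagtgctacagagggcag
Orc1, intron 1, 5′ position, Cfg2, chr4:108582618-108582755, plus strand: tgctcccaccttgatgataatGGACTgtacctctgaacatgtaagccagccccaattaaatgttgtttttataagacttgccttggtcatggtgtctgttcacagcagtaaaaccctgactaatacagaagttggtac
Orc3, intron 9, 5′ position, Cfg1, chr4:34592231-34592397, minus strand: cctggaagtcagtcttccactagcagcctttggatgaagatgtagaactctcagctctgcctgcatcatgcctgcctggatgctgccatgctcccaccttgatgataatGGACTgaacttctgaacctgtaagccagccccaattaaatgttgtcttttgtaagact
Orc1, intron 1, 5′ position, Cfg2, chr4:108582757-108582929, plus strand: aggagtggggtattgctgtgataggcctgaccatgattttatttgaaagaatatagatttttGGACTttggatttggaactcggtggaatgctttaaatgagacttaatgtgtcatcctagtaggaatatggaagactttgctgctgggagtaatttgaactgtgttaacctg
Orc3, intron 9, 5′ position, Cfg1, chr4:34592025-34592208, minus strand: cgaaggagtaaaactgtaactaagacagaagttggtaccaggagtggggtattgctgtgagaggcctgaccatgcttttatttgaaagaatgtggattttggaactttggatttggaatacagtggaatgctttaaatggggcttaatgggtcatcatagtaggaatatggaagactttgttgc

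GGACT was searched on the transcript strand only. The Orc1 stretch held 7 GGACT and the Orc3 stretch 6, and 6 of these stood at the same aligned bases. Of the 7 in Orc1, 6 lay in peaks, and of the 6 in Orc3, 5 did. At 5 of the shared positions the motif was inside a peak in both genes, and at the remaining shared position, 1496 nt along the Orc1 copy, it was inside a peak in neither. The GGACT that Orc1 alone held, at 420 nt in the pair printed last, was altered in Orc3 by G421A (Orc1 base, position counted from 1 at the 5′ end of the Orc1 stretch, Orc3 base), which leaves GAACT, also a DRACH form. A peak was called over this position in both genes. Over intron 1 of Orc1, the density was 6.4 GGACT per kb in the peaks and 0.613 per kb outside them. In intron 9 of Orc3 these densities were 4.54 and 0.82 per kb. The motif count per peak ran from 0 to 2 in Orc1 intron 1 and from 0 to 3 in Orc3, so several parts of the divided regions had none.

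**Figure D4:**
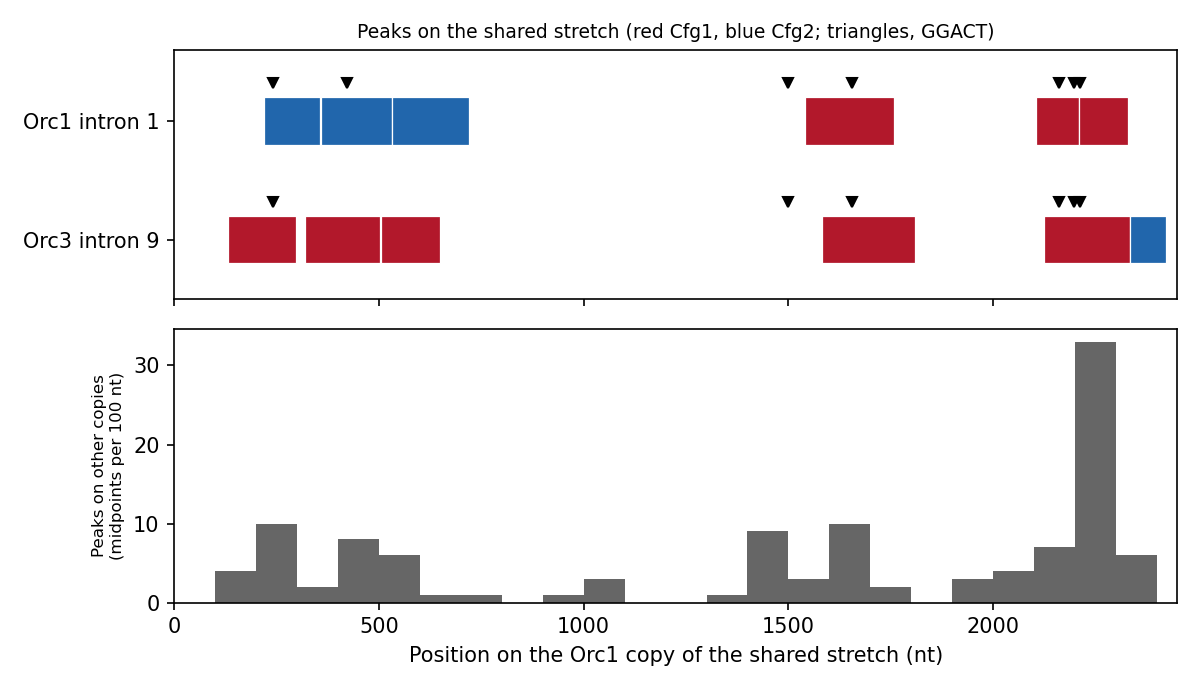
Top: peaks (bars) and GGACT (triangles) of Orc1 intron 1 and Orc3 intron 9 by position in nt along the Orc1 copy of the shared stretch. Bottom: midpoints of SySy-called peaks on other copies per 100 nt of the same axis; they are most frequent from 2200 to 2299 nt, with 33 peaks.

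The same stretch was then sought in the whole assembly with the Orc1 copy as the query. The search gave 149747 hits, which covered 33740278 nt. On the strand of a copy, 127 of 10749 SySy-called peaks (1.18%) had at least 50% of their length on it, whereas 1 lay likewise on the opposite strand of a copy. Whether the shares of peaks on copies exceed the share of the assembly that copies make up was not tested. Among intronic SySy-called peaks the share was 62 of 889 (6.97%), among those outside genes 59 of 911 (6.48%) and among exonic ones 6 of 8949 (0.067%). Orc1 and Orc3 supplied 12 of the 62 intronic peaks, and 50 lay outside the members. Those 12 count through the selection of the 2 genes, so the intronic share is raised by it. In Cfg3, 26 of 3091 intronic peaks (0.841%) lay on copies. When a copy needed at least 80% identity, the SySy-called peaks on copies fell to 67 in all, 40 in introns and 24 outside genes, and the intronic Cfg3 peaks to 7. The runs in Orc1 and Orc3 were thus not alone in lying on this sequence. Among 34 genes with such intronic peaks, these 2 had 6 deposited peaks each and the next, Ankib1, had 4. Orc1 and Orc3 had been picked for their runs and the stretch was taken from their introns, so this rank carries no test. Kif18a, Rps15a, Utp14a, Znrf2 and Zzz3 followed with 3 each. These 6 genes were chosen after their values were seen. Counted by called region, an alternative added after seeing the data, Orc1, Orc3 and Ankib1 had 3 each.

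Most copies carried no peak. The assembly held 1252 near-complete copies, defined as hits on the same strand that together spanned at least 80% of the stretch, and 32 of them had a SySy-called peak on their strand. In introns of protein-coding genes, in the direction of the gene, 19 of 124 had a peak (15.3%). These include the copies of Orc1 and Orc3, the 2 with 6 peaks. Both had been picked for such peaks and defined the stretch, so they count by selection and raise this share. Copies in such introns but against the direction of the gene had a peak on their own strand in 2 of 162 cases (1.23%), and copies elsewhere in 11 of 966 (1.14%). Whether the copies with a peak were those in the more abundant transcripts was not tested, as the lists hold no expression level.

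Peaks on other copies were placed along the same axis. Of 114 SySy-called peaks of other loci whose midpoint could be placed on it, 91 (79.8%) fell on bases covered by a peak of Orc1 or Orc3, and those bases made up 48.4% of the stretch. Between 2200 and 2299 nt lay 33 of the midpoints. The 3 closely spaced GGACT of the Orc1 copy start at 2159, 2196 and 2210 nt. No midpoint was placed between 1100 and 1299 nt, where neither Orc1 nor Orc3 had a peak. Both genes also lacked a peak from 1000 to 1099 nt and from 1400 to 1499 nt, where 3 and 9 midpoints lay. The GGACT at 1496 nt of the Orc1 copy starts in the latter interval. Whether the other copies carry GGACT at these places was not examined. Because the ends of the stretch match and the Orc1 copy ends within the terminal repeat, peaks in the 3′ terminal repeat of other copies may be placed at its 5′ end. The copies share descent and so are not independent of each other, and these shares are given without a test.

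Reads from repeated sequence can match several places. At the read length, the copies in Orc1 and Orc3 were mostly distinct: of 1150 windows of 75 bases within the 12 peaks, 1088 (94.6%) occurred once in the assembly. None of the 12 peaks had more than 26.7% recurring windows. The peaks with any were the 5′ position of Orc1, at 23.4% and 24.6% in its outer parts (up to 111 and 55 copies), the first part of its 3′ position at 26.7% (up to 17 copies) and the first peak of Orc3 at 11.8% (up to 3 copies). The placement of these 4 is uncertain to that extent. Only exact matches were counted, so a window with a near-identical copy elsewhere counts as occurring once. The placement of the other peaks is therefore not shown to be certain either. With windows of 50 bases, 69.7% were found once, and the recurring share reached 100% in the first part of the 3′ position of Orc1 and 93.2% in the first peak of Orc3. How reads with several equal matches had been handled for these libraries is not given in the sources used here.

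Alternative exons were marked at both stretches in the annotation. In Orc3, the 2 peaks nearest to the 5′ splice site had midpoints 747 and 944 nt from it. Both midpoints lay in the last exon (34592073 to 34592499, 427 nt) of Orc3-205, a noncoding transcript that ends within intron 9. The second of these peaks, at 34592025 to 34592208, reached past the 3′ end of that exon. The transcript Orc3-207 also ends within intron 9. Its last exon reaches from exon 9 into the intron as far as 34592533, just before the shared stretch. In Orc1 none of the 7 intronic SySy-called peaks overlapped an exon of another GENCODE transcript. RefSeq holds a predicted Orc1 transcript whose first exon (108584779 to 108588781, 4003 nt) begins 53 nt after the last peak of the run, within the terminal part of the shared stretch. The peaks themselves were outside it.

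Further features of the runs are given beside the same shares over all intronic SySy-called peaks. Over 50% of the interval was soft-masked in 6 of 6 peaks of Orc1 intron 1 and in 6 of 6 of Orc3 (100%, 95% Wilson interval 61% to 100% for each), against 177 of 889 intronic SySy-called peaks (19.9%, 17.4% to 22.7%). GGACT was found in 5 of 6 peaks of Orc1 intron 1 (83.3%, 43.6% to 97%) and in 3 of 6 of Orc3 (50%, 18.8% to 81.2%), against 341 of 889 (38.4%, 35.2% to 41.6%). In a fixed window reaching 50 nt to each side of the midpoint, these were 4 of 6, 2 of 6 and 258 of 889 (29%). At least 1 DRACH was present in every one of the 14 intronic SySy-called peaks of the members and in 98.5% of all 889, so this wider motif separates nothing here.

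The location within the intron differed between the genes. None of the 7 intronic peaks of Orc1 was in the first 25% of its intron (0%, which allows up to 35.4%), and 3 of 6 in Orc3 were (50%, 18.8% to 81.2%); over all intronic SySy-called peaks the share was 40.9% (37.8% to 44.2%). Distances of the midpoints from the 5′ splice site ran from 3112 to 5093 nt in Orc1 intron 1 and from 747 to 2770 nt in Orc3 intron 9. The median over all intronic SySy-called peaks was 1721 nt. The shared stretch, which holds these 12 peaks, begins 2825 nt into the Orc1 intron and 534 nt into the Orc3 intron. The ranges and the first-25% shares of the 12 peaks thus reflect where the stretch lies, not separate placements. Positions exonic in another transcript were 2 of 6 in Orc3 and 0 of 7 in Orc1, against 341 of 889 (38.4%). The GC content of the 12 peaks ranged from 33.7% to 49.5%, with a median of 40% in Orc1 intron 1 and 45.2% in Orc3, against a median of 48.4% over all intronic SySy-called peaks. Peaks of the same gene share a transcript and often a called region, so these intervals cover counting error only and are too narrow as a measure of the gene.

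**Figure D5:**
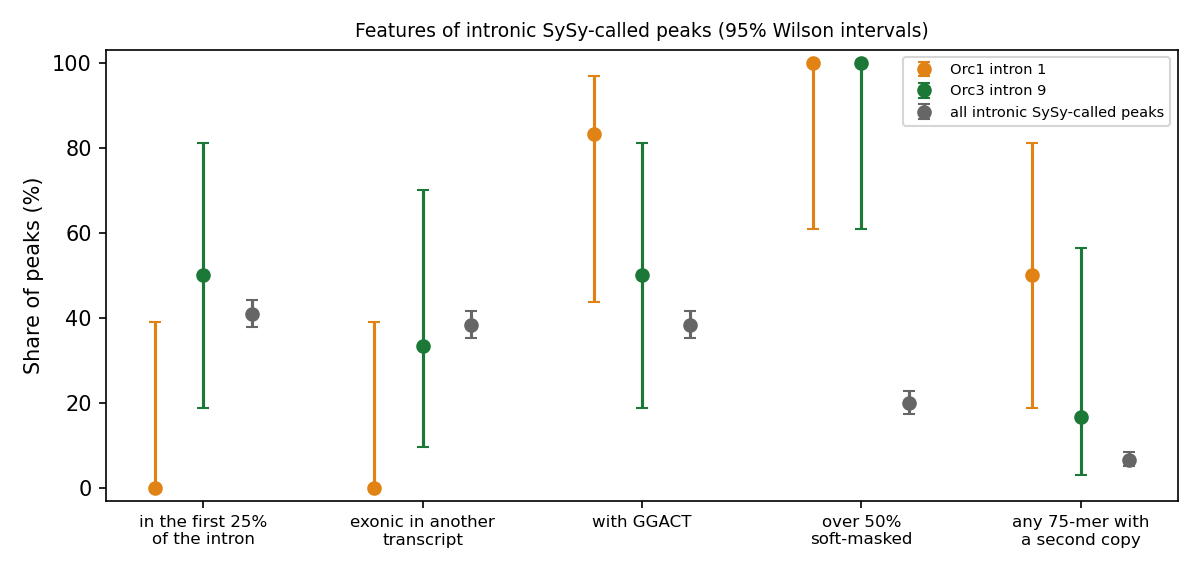
Share of peaks (y axis, %) with each feature (x axis) for the 6 peaks of Orc1 intron 1, the 6 of Orc3 intron 9 and all intronic SySy-called peaks; bars are 95% Wilson intervals. The soft-masked share is 100% in both genes and 19.9% over all, and the other intervals are wide.

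By the numbers of exonic and intronic peaks in the 3 lists, the genes most like Orc1 were 4732471J01Rik (Euclidean distance 1.41 over the 6 counts), Gm20422 and Gm49356 (1.73 each), out of 5766 other genes with a peak, with none tied beyond them. The genes most like Orc3 were Gm49573 (distance 1), Icosl (1.41) and Setd4 (2), with 4 genes at or within the distance of Setd4. None of the 5 to 8 intronic SySy-called peaks of any of these 6 genes lay on a copy of the shared stretch. These 6 genes were chosen for their like counts. Their peaks were counted by the introns of each gene alone, whether or not an exon of another gene overlapped them. Counted so, these 6 genes reached such numbers without a peak on a copy of the stretch. How runs of intronic peaks arise was not tested.

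Genes that act beside the complex were compared by a list of 28 chosen by role. At least 1 peak was found in 18 of the 28 (64.3%), a SySy-called peak in 15 (53.6%) and a SySy-called intronic peak in 5 (17.9%), with 10 holding a Cfg1, 10 a Cfg2 and 8 a Cfg3 peak. Over all protein-coding genes the shares were 25.1%, 19.7% and 2.7%, and 12.1%, 13.7% and 13.3% for Cfg1, Cfg2 and Cfg3. The list was not tested against them. The treslin gene Ticrr, needed to start the loaded helicase, had the most SySy-called peaks of the list, 10, of which 8 were exonic. Of the helicase loaders, Cdc6 had 2 Cfg2 peaks and Cdt1 had 2 Cfg1 peaks, all exonic. Among helicase genes, Mcm3 had 2 exonic Cfg1 peaks and an intronic Cfg3 peak, Mcm6 had 1 exonic Cfg1 peak and Mcm5 only an intronic Cfg3 peak. Mcm7 and Mcm8, the latter a relative of the helicase with a part in recombination, had 1 intronic SySy-called peak each.

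For the GINS subunits, Gins1 had 1 exonic and 1 intronic Cfg2 peak, Gins2 had 1 exonic Cfg2 peak, and Gins3 had 4 exonic SySy-called and 2 exonic Cfg3 peaks. Cdc7 and Dbf4, the kinase that fires origins and its activator, had 1 and 2 exonic SySy-called peaks, with 4 exonic Cfg3 peaks in Dbf4. Mcm10 had 2 and Topbp1 had 1 exonic SySy-called peak. Rif1, a regulator of replication timing, had 3 exonic and 1 intronic SySy-called peak and 3 Cfg3 peaks. Lrwd1, which binds the complex on chromatin, and the acetyltransferase gene Kat7 had 2 intronic Cfg3 peaks each and no SySy-called peak. No gene of the list had more than 2 SySy-called intronic peaks, against 7 in Orc1 and 6 in Orc3; Orc1 and Orc3 had been picked for theirs.

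Of 8 embryonic stem cell genes, 7 (Pou5f1, Sox2, Nanog, Klf4, Esrrb, Zfp42 and Tbx3) held a SySy-called peak, against 19.7% of protein-coding genes. None of 4 fibroblast genes (Col1a1, Col1a2, Thy1 and Vim), which would mark feeder cells, held a peak of any list, against 25.1%. Peak presence is not a level of expression, and the lack of peaks in 4 genes does not show that feeder cells were absent.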

How the data were processed

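RNA bound to chromatin in E14 cells was measured in 8 libraries (immunoprecipitate and input, 2 antibodies, duplicates). As the methods and the processing notes of the submitters describe, the authors called peaks on duplicates against input on mm10 with MACS2 2.1.1, divided regions between summits, limited width around each summit and assigned the strand by enrichment; HOMER is also named. The deposited lists give the start and end of each interval (other units) and a score, which was 0 for all 17068 peaks, so no stricter threshold could be tried. The methods give 1 library kit for the SySy and another for the Abcam libraries, whereas the labels name the same kit for all.

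Intervals were placed on GRCm38.p6 with GENCODE vM21, older than the study's release, by midpoint and strand, on the transcript with the longest coding sequence. For shares over peaks, exons of any gene came before introns. For counts per gene, the exons and introns of that gene alone were used, so a peak could count for several overlapping genes. All 47 spliced member transcripts matched the reference transcripts base for base. Left out were pseudogenes, genes of small RNAs, and segments of immunoglobulins and T-cell receptors. The shared stretch was the span of same-strand alignments of at least 300 nt (blastn 2.17.0, e-value 1e-20, no dust filter), and paired bases came from a global alignment (Biopython 1.88). Hits at most 1000 nt apart were joined into copies. Recurrence of 75- and 50-base windows was counted on both strands of the assembled chromosomes. Placement, window counts and the search were tested on simulated data.

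Named genes were the 6 members, the genes of the pathway list with a peak, and the 3 genes nearest to Orc1 and to Orc3 in peak counts. Genes that overlap members or their peaks, the marker genes, and Ankib1, Kif18a, Rps15a, Utp14a, Znrf2 and Zzz3 are named besides; these last 6, and the overlapping genes, were chosen after their values were seen. The members and lists were chosen with earlier results of these data known. No p-value is given, since the lists hold no replicate values; shares carry 95% Wilson intervals (scipy 1.17.1). Coordinates run from the first to the last base.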

Additional observations from a re-analysis of the deposited data

How the results depend on the processing

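Of 43 alternatives tried over 16 counts, 30 stayed within 1.5 times the main count. The 11 on copies of the stretch, on called regions and on RefSeq exons were chosen after seeing the data. The search for the stretch and its copies was likewise not planned, so the main counts on copies also followed the data. The 7 intronic SySy-called peaks of Orc1 became 4 with abutting peaks joined, 4 counted per called region, 3 in Cfg1 alone and 4 in Cfg2 alone. The 6 of Orc3 became 3 counted per called region and 1 in Cfg2 alone. Positions exonic in another transcript changed from 2 to 1 with RefSeq exons (the Orc5 peak, on a pseudogene, in place of the Orc3 peaks). Peaks with the motif rose from 9 of 14 for GGACT to 14 for DRACH, which includes it. Peaks with recurring sequence went from 0 to 3 with windows of 50 bases, and to 5 when any window of 75 bases counted. Intronic SySy-called peaks on copies of the stretch fell from 62 to 40 when a copy needed at least 80% identity. Per called region, the peaks on copies numbered 3 in Orc1 and in Orc3 (6 each as deposited) and 3 in Ankib1 (4 as deposited). Near-complete intronic copies with a peak numbered 26 of 229 (11.4%) when 50% of the stretch sufficed. No paired analysis was possible because the lists come from pooled duplicates, and for the same reason no replicate could be left out. A stricter caller threshold was not run, as the lists hold no usable score. The depth of each library is unknown, so a gene without a peak, such as Orc4, may lie under the limit of detection.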
